A study of Homo sapiens with 9 samples.

Results

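The genes described here are 10 genes of the cornified envelope and of late squamous differentiation, out of 60605 genes in the deposited table: IVL, SPRR1A, SPRR1B, SPRR2A, SPRR2D, SPRR3, TGM1, CSTA, CNFN and RHCG. They were chosen by symbol, and each symbol had 1 row in the table. Their RNA was measured by sequencing of poly(A)+ RNA in TE13 cells, an established cell line of esophageal squamous cell carcinoma. The cells were transfected with a control siRNA or with 1 of 2 siRNAs against PARylator, the long noncoding RNA LINC00885. These are called siRNA.1 and siRNA.2, and each condition had 3 libraries, labelled as biological replicates, for 9 libraries in all. The time from transfection to harvest and the siRNA dose of these libraries are not given in the sources used here, and all values come from 1 cell line in culture.

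The cornified envelope is a shell of crosslinked protein that squamous cells build under the plasma membrane as they reach the surface of the epithelium. Involucrin (IVL) is laid down early as a scaffold, small proline-rich proteins (the SPRR family) bridge other precursors, and transglutaminase 1 (TGM1) joins them through covalent bonds. Cystatin A (CSTA) inhibits cysteine proteases and is itself built into the envelope, cornifelin (CNFN) is a further envelope component, and RHCG is an ammonia transporter of the upper layers of squamous mucosa. In the human esophagus these genes mark the differentiated layers above the basal cells, and SPRR3 and RHCG transcripts are abundant in the normal mucosa.

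Total counts on genes were between 15337917 and 22559998 per library and were highest in the siRNA.2 group. Mitochondrial genes took 7.46% to 7.66% of the counts in the control group, 4.99% to 5.06% after siRNA.1 and, at an intermediate share, 5.54% to 5.56% after siRNA.2, and the part of this shift in the results was not tested. LINC00885 had 6 to 12 counts in control libraries, 2 to 5 after siRNA.1 and 0 to 4 after siRNA.2 (group means of 0.217, 0.0967 and 0.04 FPKM), and its log2 fold changes of -1.21 and -2.33 did not pass the test (edgeR adjusted p = 0.376 and 0.0659). With so few counts the test could miss a fall of this size. The paper reports knockdown of PARylator by siRNA in TE13 cells, measured by qPCR. FPKM is the count scaled by exonic length and by the total count of the library. The squamous origin of the cells was visible, with 7 of 7 squamous markers (TP63, KRT5, KRT14, KRT6A, KRT15, DSG3, SFN) at 1 FPKM or more in mean. Their summed level went from 554 to 581 FPKM in control libraries to 360 to 376 after siRNA.1 and 390 to 405 after siRNA.2. This fall of the sum came mainly from KRT5 (142.5 FPKM in control, then 39.97 and 55.82) and SFN (305, then 180 and 182.2). TP63 and KRT15 were also called lower with both siRNAs. KRT6A and DSG3 were called higher with both, and KRT14 was called with neither. Of the 5 columnar epithelium markers none reached 1 FPKM (sum at most 0.11). Markers of other cell types were low but moved with the siRNAs. The 5 leukocyte markers summed to 0.47 to 0.84 FPKM in control, 3.56 to 3.95 after siRNA.1 and 3.49 to 4.06 after siRNA.2. This rise came mainly from LYZ (0.317 FPKM in control, then 2.79 and 3.08), the only one at 1 FPKM or more in mean. Of 4 tested, 3 were called higher after siRNA.1 and 2 after siRNA.2. PTPRC was called higher with both, and CD3E was at or below a group mean of 0.02. The 6 fibroblast markers summed to 2.23 to 2.49, 1.46 to 1.64 and 1.5 to 1.72 FPKM in the same order, mostly from COL1A1, with DCN at or near 0, and the 4 endothelial markers to 1.2 to 1.54, 0.63 to 0.89 and 0.42 to 0.55, with KDR at or near 0. All 9 libraries are of the TE13 line, so by design these sums are not shares of other cell types. The part of these markers in the results was not tested. Bulk RNA cannot tell a change in a part of the cells from a change in all of them.

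Of the 10 genes, 6 lie in the epidermal differentiation cluster of chromosome 1 (GRCh38, all coordinates 1-based). IVL (ENSG00000163207) occupies chr1:152908546-152911886, SPRR3 (ENSG00000163209) chr1:153001747-153003856 and SPRR1B (ENSG00000169469) chr1:153031203-153032900 on the plus strand, and SPRR2D (ENSG00000163216) chr1:153039732-153041931 and SPRR2A (ENSG00000241794) chr1:153056120-153057512 on the minus strand. The deposited row of SPRR1A (ENSG00000169474) covers 270 bases, chr1:152985231-152985500, within a gene that GENCODE release 44 places at chr1:152984081-152985814 with a canonical transcript of 648 bases, so its counts and FPKM describe that stretch. The deposited start and end of the other 9 genes are those of GENCODE 44. TGM1 (ENSG00000092295) lies at chr14:24249114-24264432 (minus strand, 15 exons in the canonical transcript), CSTA (ENSG00000121552) at chr3:122325248-122341969 (plus, 3 exons), CNFN (ENSG00000105427) at chr19:42387019-42390297 (minus, 4 exons) and RHCG (ENSG00000140519) at chr15:89471398-89496589 (minus, 11 exons). No other gene of the table overlaps any of the 10. Among 50-base stretches of their GENCODE 44 transcripts, 34.4% for SPRR2A and 19.4% for SPRR2D also occur in another SPRR gene. The share was 7.24% for SPRR1A (whole transcripts, not the deposited 270 bases), 8.25% for SPRR1B and 0% for SPRR3. Reads from shared stretches of SPRR2A and SPRR2D could be assigned to another copy, which was not tested.

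The 250 bases before the start site were read from RefSeq (GRCh38.p14), which matched 6 of the 10 genes: IVL, SPRR1A, SPRR3, SPRR1B, SPRR2A and CNFN. They are shown for a pair of genes that rose after both siRNAs (SPRR1B, SPRR2A) and a pair from the same cluster that stayed near 0 (IVL, SPRR3), 5′ to 3′ on the strand of the gene, with capitals for the AP-1 motif (TGANTCA, the site of Jun and Fos dimers) and for the octamer ATGCAAAT, which is printed as its reverse complement where it lies on the other strand.
SPRR1B (chr1:153030953-153031202, plus strand): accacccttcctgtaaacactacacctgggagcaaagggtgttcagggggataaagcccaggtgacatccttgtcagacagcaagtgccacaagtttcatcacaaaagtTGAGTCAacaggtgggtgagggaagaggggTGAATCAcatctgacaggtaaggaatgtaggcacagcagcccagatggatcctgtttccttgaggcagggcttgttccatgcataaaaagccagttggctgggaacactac
SPRR2A (chr1:153057513-153057762, minus strand): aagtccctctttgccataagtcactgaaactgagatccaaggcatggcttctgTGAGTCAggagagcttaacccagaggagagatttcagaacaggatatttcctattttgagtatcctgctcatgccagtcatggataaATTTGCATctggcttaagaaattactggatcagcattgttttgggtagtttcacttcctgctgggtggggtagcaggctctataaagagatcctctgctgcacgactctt
IVL (chr1:152908296-152908545, plus strand): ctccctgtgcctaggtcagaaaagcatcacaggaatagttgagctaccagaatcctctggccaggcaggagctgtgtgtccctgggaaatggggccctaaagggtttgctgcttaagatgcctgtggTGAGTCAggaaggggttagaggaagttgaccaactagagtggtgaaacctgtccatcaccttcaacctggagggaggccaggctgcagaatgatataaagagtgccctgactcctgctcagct
SPRR3 (chr1:153001499-153001748, plus strand): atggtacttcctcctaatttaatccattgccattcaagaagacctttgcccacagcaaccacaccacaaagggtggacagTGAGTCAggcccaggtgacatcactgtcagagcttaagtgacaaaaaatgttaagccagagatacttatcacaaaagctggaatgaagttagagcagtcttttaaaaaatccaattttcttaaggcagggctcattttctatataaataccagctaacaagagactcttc

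Motifs were searched on both strands, and no match overlapped another. SPRR1B held the AP-1 motif at 141 to 135 and at 111 to 105 bases before the start, SPRR2A at 197 to 191, IVL at 123 to 117 and SPRR3 at 170 to 164. SPRR1A, not printed, held it at 108 to 102, and CNFN did not hold it. Of all 35116 promoters of the same length 6.57% held it. The octamer, found in 1.63% of promoters, was in SPRR2A at 110 to 103 bases, and the grainyhead motif AACCGGTT, found in 0.117%, was in none of the 6. The AP-1 motif was thus present both upstream of genes with counts and upstream of genes near 0 in these cells.

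With control siRNA, CSTA was the most abundant of the 10 genes at 29.65 ± 1.15 FPKM (SD, n = 3 here and throughout), above 94.6% of the genes with any signal in those libraries. SPRR1B followed at 5.04 ± 1.49, TGM1 at 2.72 ± 0.135, SPRR2A at 2.42 ± 0.314, CNFN at 2.12 ± 1.44, SPRR1A at 0.843 ± 0.304 and SPRR2D at 0.49 ± 0.344 FPKM. CSTA and SPRR1B stood apart from their neighbours in this order, while the ranges of TGM1 and SPRR2A, SPRR2A and CNFN, CNFN and SPRR1A, and SPRR1A and SPRR2D overlapped. RHCG (0.0433 FPKM), SPRR3 (0.0267) and IVL (0.01) came last and could not be ordered. After siRNA.1 SPRR2A (5.8 FPKM) stood above TGM1 (3.73) without overlap, and after siRNA.2 CNFN (2.67) and TGM1 (1.66) overlapped below SPRR2A (7.24).

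**Figure D1:**
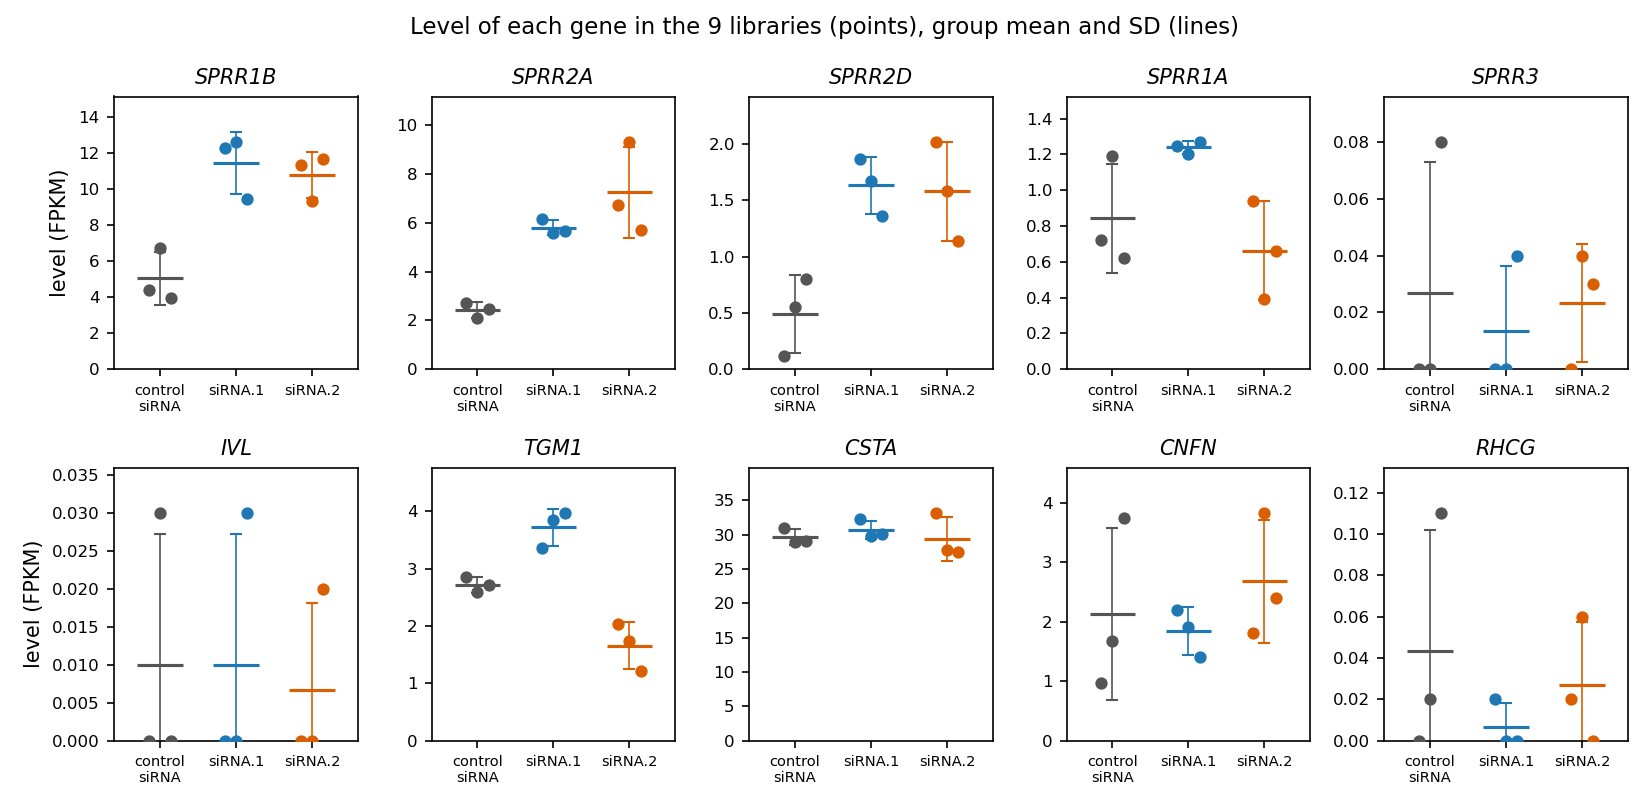
Level in FPKM (y axis, linear from 0, scaled per gene) of each of the 10 genes in the 3 libraries of each condition (x axis), with the group mean as a horizontal line and the SD as error bars. SPRR1B, SPRR2A and SPRR2D sit higher in all siRNA libraries than in all control libraries, TGM1 is higher after siRNA.1 and lower after siRNA.2, CSTA stays between 27.42 and 33.13 FPKM, and SPRR3, IVL and RHCG stay at or below 0.11 FPKM.

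The first question was which of these genes changed when PARylator was targeted by either siRNA. SPRR1B, SPRR2A and SPRR2D rose between 2.13-fold and 3.18-fold after both siRNAs, and TGM1 rose 1.34-fold after siRNA.1 and fell to 0.6 of control after siRNA.2. CSTA, CNFN and SPRR1A did not pass the test after either siRNA, and IVL, SPRR3 and RHCG were too low to be tested. A gene entered the test at a mean of 0.1 FPKM or more over the 9 libraries, which 7 of the 10 reached, and a change was called where the p-value, adjusted over the 21397 tested genes, was below 0.05. After siRNA.1, 4 of the 7 were called higher and 0 lower, beside 30.2% of all tested genes called in either direction and 15% called higher. After siRNA.2, 3 were called higher and 1 lower, beside 30.9% in either direction, 15.8% higher and 15.1% lower. The median log2 fold change of the 7 was 0.53 after siRNA.1 and 0.29 after siRNA.2, and that of all tested genes -0.0005 and 0.0040. Both comparisons use the same control libraries, so the values of the siRNAs are not independent of each other.

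Among the bridging precursors, SPRR1B, which crosslinks through both of its ends, was at 4.42, 6.74 and 3.97 FPKM in the control libraries (42, 65 and 44 counts). It was at 12.28, 12.61 and 9.44 FPKM after siRNA.1 and at 11.34, 9.33 and 11.67 FPKM after siRNA.2. Every siRNA library was above every control library. The rise was 2.23-fold after siRNA.1 (95% interval 1.71 to 2.92, log2 fold change 1.16, SE 0.20, edgeR adjusted p = 5.67e-08) and 2.13-fold after siRNA.2 (1.64 to 2.78, log2 1.09, SE 0.20, edgeR adjusted p = 2.34e-07).

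SPRR2A, a member of the SPRR2 subfamily encoded in the same cluster, was at 2.7, 2.08 and 2.48 FPKM in control libraries (28, 22 and 30 counts). Its levels were 6.15, 5.57 and 5.67 FPKM after siRNA.1 and 6.71, 9.3 and 5.7 FPKM after siRNA.2. The control libraries were again the 3 lowest, and library 2 of siRNA.2 was the highest. The fold was 2.35 after siRNA.1 (95% interval 1.66 to 3.33, log2 1.23, SE 0.26, edgeR adjusted p = 1.44e-05) and 2.95 after siRNA.2 (2.10 to 4.14, log2 1.56, SE 0.25, edgeR adjusted p = 4.95e-09).

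SPRR2D, its neighbour on the same strand, was at 0.12, 0.55 and 0.8 FPKM in control libraries, which rested on 2, 9 and 15 counts. After siRNA.1 it had 35, 27 and 25 counts (1.87, 1.67 and 1.36 FPKM), and after siRNA.2 42, 32 and 27 counts (2.02, 1.58 and 1.14 FPKM). The groups did not overlap, but the control libraries differed widely among themselves. The fold was 3.18 after siRNA.1 (95% interval 1.75 to 5.77, edgeR adjusted p = 0.000844) and 3.09 after siRNA.2 (1.71 to 5.57, edgeR adjusted p = 0.001). On the log2(FPKM + 1) scale in limma its log2 fold changes were 0.84 and 0.81 in place of 1.67 and 1.63, both still called (limma adjusted p = 0.0112 and 0.0137). With single libraries left out, the edgeR adjusted p was 0.000268 to 0.0287 after siRNA.1 and 0.000313 to 0.0335 after siRNA.2.

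SPRR1A, close in sequence to SPRR1B, had 3, 5 and 3 counts in control libraries, 6, 5 and 6 after siRNA.1 and 5, 2 and 4 after siRNA.2. In FPKM this was 0.72, 1.19 and 0.62, then 1.25, 1.2 and 1.27, then 0.94, 0.39 and 0.66. All siRNA.1 libraries were above the control range, by a small margin, and the siRNA.2 libraries overlapped it. The log2 fold changes of 0.53 (95% interval -1.44 to 2.49) and -0.35 (-2.38 to 1.69) did not pass the test (edgeR adjusted p = 0.765 and 0.859), and a change of the size seen for SPRR1B lies inside both intervals. When the reads of SPRR1A and SPRR1B were summed as 1 feature, the log2 fold changes were 1.12 and 1.03 (edgeR adjusted p = 6.46e-08 and 6.6e-07), with nearly all of the counts from SPRR1B. The SPRR2 genes summed to 32, 31 and 46 counts in control, 114, 85 and 92 after siRNA.1 and 133, 153 and 121 after siRNA.2. This sum was called higher with both (edgeR adjusted p = 1.52e-08 and 4.61e-12). Nearly all of its counts came from SPRR2A and SPRR2D, so it is not a separate result.

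IVL, the scaffold protein, had 3 counts in all, 1 in each condition (library 2 of control, library 3 of siRNA.1 and library 3 of siRNA.2). SPRR3, the SPRR gene of the esophageal mucosa, had 5 counts in all and at most 2 in any library. A count of 0 allows up to 3 counts, which is 0.0618 to 0.0909 FPKM for IVL and 0.0923 to 0.136 FPKM for SPRR3 across the libraries, for counting error only. A change of either gene below that level was not detectable at this depth.

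TGM1, the crosslinking enzyme, was at 2.86, 2.59 and 2.71 FPKM in control libraries (164, 151 and 181 counts). It was at 3.36, 3.85 and 3.97 FPKM after siRNA.1 and at 2.03, 1.73 and 1.21 FPKM after siRNA.2. The 3 groups did not overlap, and siRNA.1 was highest and siRNA.2 lowest. TGM1 rose 1.34-fold after siRNA.1 (95% interval 1.11 to 1.62, log2 0.43, SE 0.14, edgeR adjusted p = 0.0101) and fell to 0.6 of the control level after siRNA.2 (0.490 to 0.735, log2 -0.74, SE 0.15, edgeR adjusted p = 6.25e-06). The siRNA.1 call was lost in limma on log2(FPKM + 0.1) and on log2(FPKM + 1) (limma adjusted p = 0.0874 and 0.0574) and without library 3 of siRNA.1 (edgeR adjusted p = 0.0637), within a range of 0.00691 to 0.0874 over all alternatives, which leaves 3 of the 7 genes called after siRNA.1. The siRNA.2 call held in each other scaling, filter, tool and set of libraries (adjusted p between 1.32e-06 and 0.012), and both calls against control were lost where a log2 fold change of 1 or more in size was also asked for.

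CSTA, the protease inhibitor, was at 30.98, 28.93 and 29.04 FPKM in control libraries. After siRNA.1 it was at 32.27, 29.81 and 30.06 FPKM and after siRNA.2 at 33.13, 27.74 and 27.42 FPKM. All groups overlapped, with library 1 highest in each. With 616 to 896 counts per library its fold was bounded tightly, at 1.02 after siRNA.1 (95% interval 0.915 to 1.13, edgeR adjusted p = 0.864) and 0.984 after siRNA.2 (0.886 to 1.09, edgeR adjusted p = 0.877).

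CNFN had 9, 16 and 41 counts in control libraries (0.96, 1.67 and 3.74 FPKM), 24, 18 and 15 after siRNA.1 and 22, 45 and 33 after siRNA.2. The control libraries alone spanned almost the whole range of the 9 libraries. Its folds of 0.837 (95% interval 0.486 to 1.44) and 1.23 (0.733 to 2.05) did not pass the test (edgeR adjusted p = 0.7 and 0.63). Without control library 3 the log2 fold changes were 0.45 and 1, and without control library 1 or siRNA.2 library 2 the siRNA.2 value was -0.05, none of them called.

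RHCG, the transporter, had 0, 1 and 5 counts in control libraries, 1, 0 and 0 after siRNA.1, and 1, 3 and 0 after siRNA.2. The highest value, 0.11 FPKM in control library 3, was near the 0.0515 to 0.0757 FPKM that 3 counts stand for, and the groups overlapped. It was below the limit for testing.

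**Figure D2:**
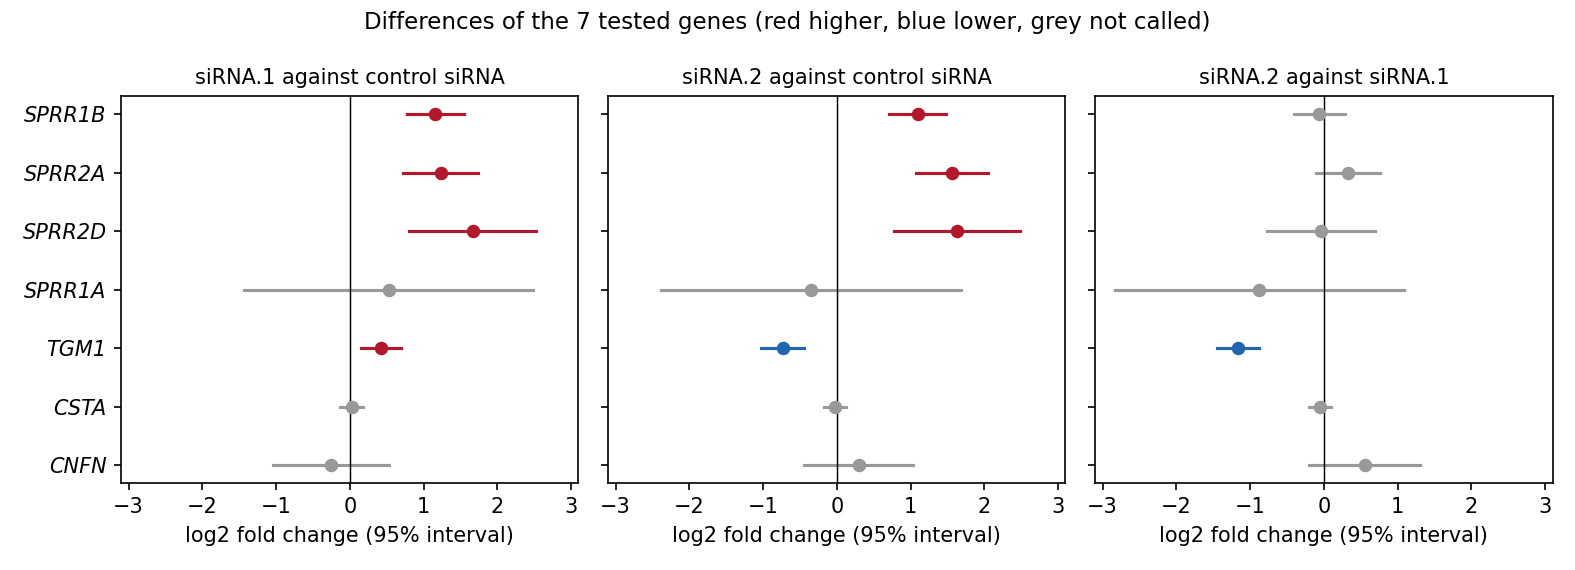
Log2 fold change (x axis, point) with its 95% interval (line) for the 7 tested genes (y axis) in each of the 3 comparisons, with genes called higher in red, lower in blue and not called in grey. The intervals of SPRR1B, SPRR2A and SPRR2D lie above 0 against control in both left panels and span 0 in the right panel, where TGM1 at -1.16 is the only gene called.

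The siRNAs were then compared with each other directly, siRNA.2 against siRNA.1. Of the 7 tested genes 1 was called, TGM1, beside 12.2% of all tested genes called in either direction with 6.1% higher and 6.07% lower. TGM1 was 0.447 of its siRNA.1 level after siRNA.2 (95% interval 0.367 to 0.543, log2 -1.16, SE 0.14, edgeR adjusted p = 1.12e-13), and this call held in each alternative. For the SPRR genes that rose after both siRNAs the log2 difference was -0.07 for SPRR1B (95% interval -0.41 to 0.28), 0.33 for SPRR2A (-0.10 to 0.76) and -0.04 for SPRR2D (-0.78 to 0.69), with edgeR adjusted p of 0.896, 0.419 and 0.978. These intervals leave room for differences in either direction, the widest for SPRR2D. For CSTA the interval was -0.20 to 0.10, for CNFN -0.20 to 1.31 and for SPRR1A -2.83 to 1.08, the last although its FPKM ranges did not overlap between the siRNAs. Over the 7 genes, FPKM ranges failed to overlap for 5 after siRNA.1 against control, 4 after siRNA.2 against control and 2 between the siRNAs, beside 37.7%, 39.6% and 24.4% of all tested genes. By direction these were 5 higher after siRNA.1 (background 20.7% higher and 17% lower), 3 higher and 1 lower after siRNA.2 (21.1% and 18.5%), and 2 lower between the siRNAs (11.3% higher and 13.1% lower).

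**Figure D3:**
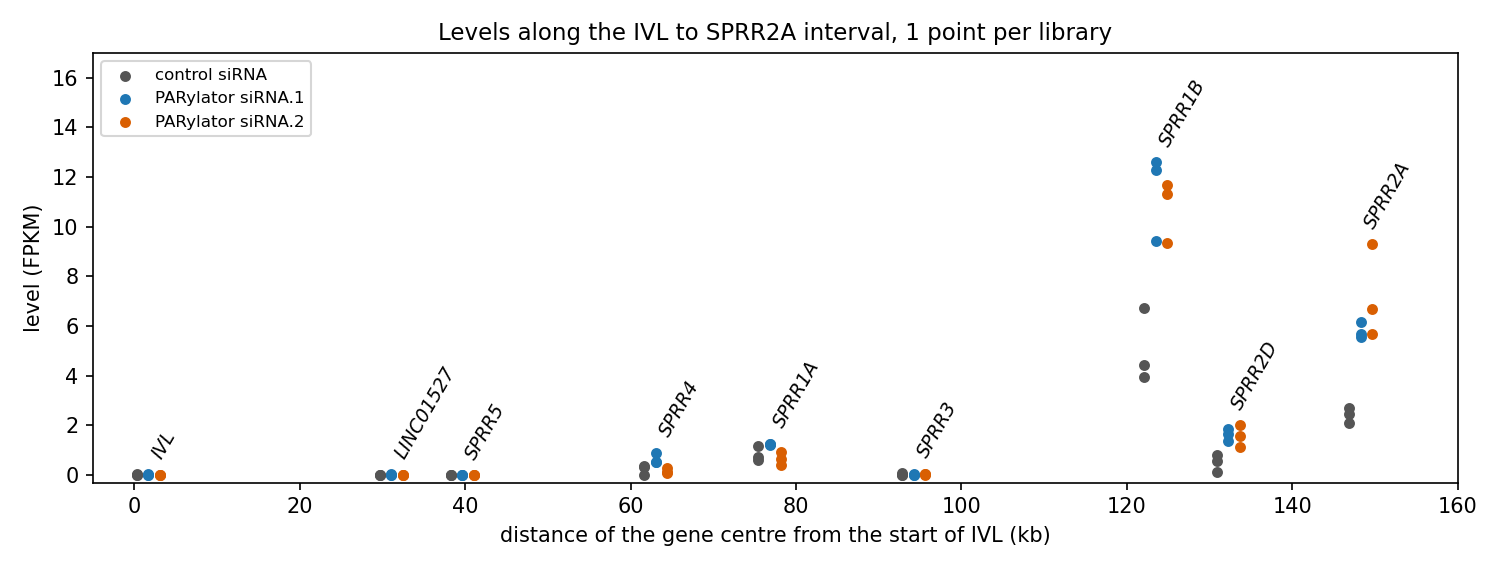
Level in FPKM (y axis, linear) of the 9 genes with a symbol in the interval from IVL to SPRR2A, placed at the distance of the gene centre from the start of IVL in kb (x axis), 1 point per library, coloured by condition and offset sideways for legibility. The strongest signal is at the SPRR2A end of the interval, where SPRR1B, SPRR2D and SPRR2A are higher after both siRNAs, and IVL and SPRR3 lie on the baseline. The interval was cut at SPRR2A, and SPRR2 genes beyond it are not shown.

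Along the chromosome, IVL and SPRR2A bound an interval of 149 kb that holds 11 genes of the table, 9 with a symbol and 5 with enough signal for testing. The 3 genes that rose, SPRR1B, SPRR2D and SPRR2A, are the last 3 of the interval on the SPRR2A side. SPRR4 and SPRR1A, the other two tested genes, lie between IVL and SPRR1B and were not called after either siRNA. SPRR4, a further SPRR gene, had group means of 0.23 FPKM in control, 0.65 after siRNA.1 and 0.167 after siRNA.2 (edgeR adjusted p = 0.283 and 0.85).

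The other genes of envelope assembly were taken from 5 lists. After siRNA.1, 15% of all tested genes were called higher and 15.2% lower. After siRNA.2 these shares were 15.8% and 15.1%. Of 22 other envelope precursors 9 had enough signal, and LORICRIN, FLG2 and CRNN had 0 FPKM in each group. After siRNA.1, 2 rose and 2 fell, and after siRNA.2, 1 rose and 3 fell (median log2 fold change 0.57 and -0.39). PI3, which encodes elafin, an elastase inhibitor that transglutaminases attach to the envelope, went from 0.583 FPKM in control to 4.47 after siRNA.1 and 2.15 after siRNA.2 (log2 2.87 and 1.82, edgeR adjusted p = 7.28e-09 and 0.000964). SCEL, which encodes the envelope precursor sciellin, fell from 1.69 to 1.04 and 0.43 FPKM (log2 -0.74 and -1.98, edgeR adjusted p = 0.0018 and 2.02e-17). PPL, which encodes periplakin, a plakin that anchors keratin filaments to the envelope, fell from 22.43 to 20.18 and 10.59 FPKM (log2 -0.18 and -1.09, edgeR adjusted p = 0.00203 and 1.64e-94). The siRNA.1 calls of SCEL and PPL were lost in limma on log2(FPKM + 0.1) (limma adjusted p = 0.0601 and 0.0507, ranges over all alternatives 0.000191 to 0.0601 and 0.00072 to 0.0507). The remaining calls, named after their values were seen, were TCHH after siRNA.1 (log2 1.03, edgeR adjusted p = 0.0475, near the threshold) and EVPL, which encodes the partner plakin envoplakin, after siRNA.2 (log2 -0.39, edgeR adjusted p = 1.55e-10).

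Of 17 genes for crosslinking, proteases and protease inhibitors 12 were tested, and 7 fell and 1 rose after siRNA.1 and 8 fell and 0 rose after siRNA.2 (median log2 fold change -0.53 and -0.45). Over all tested genes 15.2% fell and 15% rose after siRNA.1, and 15.1% fell and 15.8% rose after siRNA.2. TGM3 and TGM5, the other envelope transglutaminases, had 0 FPKM in each group. PADI3, a peptidylarginine deiminase, fell from 12.53 FPKM to 2.91 after siRNA.1 and 4 after siRNA.2 (log2 -2.14 and -1.66, edgeR adjusted p = 7.13e-81 and 2.09e-55). The kallikrein proteases KLK13 and KLK10 fell as well, KLK13 with log2 fold changes of -1.85 and -1.13 (edgeR adjusted p = 6.66e-20 and 2.43e-09) and KLK10 with -0.67 and -0.79 (edgeR adjusted p = 4.17e-27 and 1.79e-37). CST6, which encodes cystatin M/E, an inhibitor of cysteine proteases, changed in the same directions as TGM1, from 24.06 FPKM up to 31.48 after siRNA.1 and down to 17.47 after siRNA.2 (log2 0.36 and -0.47, edgeR adjusted p = 0.012 and 0.000733). The siRNA.1 call of CST6 was lost without control library 1 or without control library 2 (edgeR adjusted p = 0.0534 and 0.0585, range over all alternatives 0.00259 to 0.0585).

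Of 15 genes of mucosal surface differentiation 7 were tested, with 1 lower after siRNA.1, 4 lower after siRNA.2 and 0 higher with either (median log2 fold change -0.08 and -0.73). The shares over all tested genes were 15.2% and 15.1% lower and 15% and 15.8% higher, for siRNA.1 and siRNA.2. KRT13, a keratin of the suprabasal layers of mucosa that was named after its value was seen, went from 1.5 FPKM in control to 0.217 and 0.23 (log2 -2.84 and -2.71, edgeR adjusted p = 1.42e-13 and 1.66e-13). ECM1, LYPD3 and EMP1, also named after their values were seen, were called lower after siRNA.2, at log2 -0.85, -0.33 and -0.11 (edgeR adjusted p = 0.00123, 0.000742 and 0.0492, the last near the threshold). Of 6 envelope lipid enzymes 5 were tested. After siRNA.1, 2 rose (ABCA12 and ALOXE3), and after siRNA.2 ALOX12B rose and ABCA12 fell (median log2 fold change 0.39 and -0.06). ALOXE3 and ALOX12B, named after their values were seen, did not pass the direct test between the siRNAs (edgeR adjusted p = 0.252 and 0.528). ABCA12, the lipid transporter of lamellar granules, was at 6.09 FPKM in control, 8.15 after siRNA.1 and 5.35 after siRNA.2 (log2 0.39 and -0.20, edgeR adjusted p = 2.37e-08 and 0.012). Its siRNA.2 call was lost in both limma fits, without control library 1 and without siRNA.2 library 2 (adjusted p 0.133 to 0.253, range over all alternatives 0.00458 to 0.253).

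Of 10 transcriptional regulators of late differentiation 9 were tested, and 3 rose and 3 fell after siRNA.1 and 3 rose and 5 fell after siRNA.2 (median log2 fold change -0.06 and -0.23). Among all tested genes 15% rose and 15.2% fell after siRNA.1, and 15.8% rose and 15.1% fell after siRNA.2. PRDM1, which encodes Blimp-1, rose from 1.76 FPKM to 4.37 and 4.39 (log2 1.29 and 1.32, edgeR adjusted p = 9.24e-33 and 5.4e-35), and KLF4, a driver of barrier formation, rose from 18.37 to 25.18 and 24.31 FPKM (log2 0.43 and 0.39). ZNF750, which promotes terminal differentiation, fell from 9.45 FPKM to 2.01 and 3.28 (log2 -2.26 and -1.54, edgeR adjusted p = 1.32e-69 and 1.53e-38). GRHL3, which activates envelope genes, TGM1 among them, fell from 10.25 to 5.85 and 5.57 FPKM (log2 -0.83 and -0.89), and ELF3 fell from 28.77 to 22.93 and 18.32 FPKM (log2 -0.35 and -0.66). GRHL1 and OVOL1, named after their values were seen, were called lower after siRNA.2 (log2 -0.26 and -0.23), and the direct test between the siRNAs passed for GRHL1 (edgeR adjusted p = 0.000209) but not for OVOL1 (edgeR adjusted p = 0.353).

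**Figure D4:**
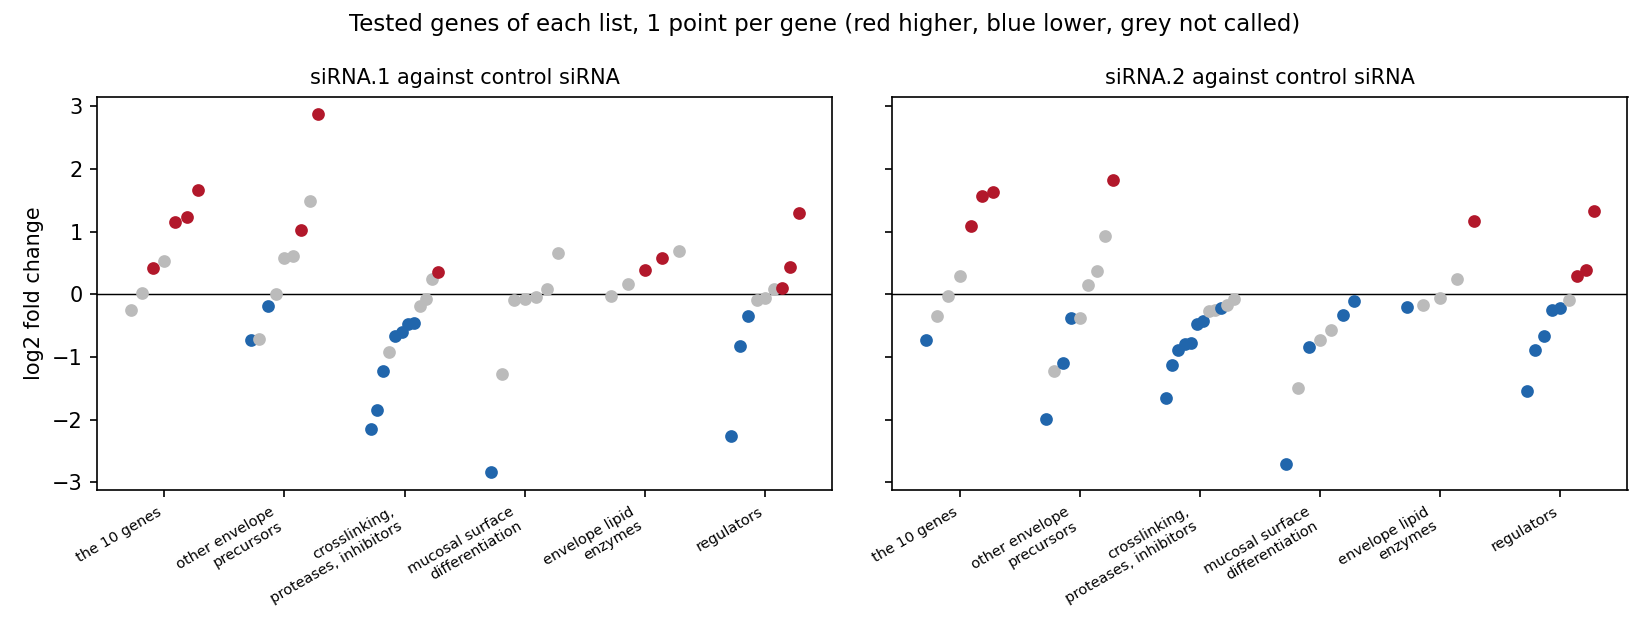
Log2 fold change (y axis) of each tested gene of the 10 genes and of the 5 lists (x axis), ordered by value within a list, for siRNA.1 (left) and siRNA.2 (right) against the same control libraries, with genes called higher in red, lower in blue and not called in grey. Most calls among crosslinking, protease and inhibitor genes are below 0 in both panels (7 of 8 after siRNA.1, 8 of 8 after siRNA.2), while the 10 genes have 4 of 4 and 3 of 4 calls above 0. Of the calls over all tested genes 49.75% were above 0 after siRNA.1 and 51.16% after siRNA.2.

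For each of the 6 genes whose mean reached 1 FPKM, the gene most like it over the 9 libraries was found by Pearson correlation of log2(FPKM + 0.1) among 11867 genes. These were PUF60 for SPRR1B (r = 0.986), NSFL1C for SPRR2A (0.984), GTF2F2 for SPRR2D (0.981), MYD88 for TGM1 (0.987), TNFSF9 for CNFN (0.919) and GAS6 for CSTA (0.882). The 9 libraries fall into 3 conditions and differ in depth, so these values are a description without a test.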

How the data were processed

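RNA-seq of TE13 cells was compared between control siRNA, siRNA.1 and siRNA.2, with 3 libraries per condition, grouped by the labels. According to the methods and labels, the authors captured poly(A)+ RNA, sequenced it on a NovaSeq system, aligned reads to GRCh38 with STAR and counted them with featureCounts. Tool versions, annotation release and strandedness are not given in the sources used here. The authors deposited raw counts per gene and FPKM beside them. FPKM was recomputed from the counts, the exonic length and the library total, and differed by at most 0.352% over the 38676 values compared. These were only a part of the deposited values. Low counts, such as those of IVL, SPRR3, RHCG and SPRR1A, were not covered.

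Counts were tested with edgeR 4.0.16 in R 4.3.3 (quasi-likelihood test, TMM) with 1 model for all 3 conditions, on the 21397 genes whose mean reached 0.1 FPKM, adjusted by Benjamini-Hochberg, threshold 0.05. The SE was taken from the fold change and the F statistic (size of the log2 value over root F), and intervals are 95%. Depth was 15337917 to 22559998 counts per library, and floors of 3 counts cover counting error only. Libraries of a condition differed by more than sampling noise.

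The 10 genes, the lists and the rules were chosen with earlier results of these data known. Named genes are the 10, LINC00885, the gene most like each, and per list up to 3 per direction called alike with both siRNAs at a mean of at least 1 FPKM, by size of change, plus any called in opposite directions. 1 gene chosen by this rule is not reported here. Alternatives were other scalings, filters and tools (DESeq2 1.42.0, limma 3.58.1 with pseudocounts 0.1 and 1), a fit of 2 groups, a replicate block, each library left out, a fold threshold and summed copies. The fit was tested on simulated data. Figures were drawn in Python 3.11.15 with matplotlib 3.10.9.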

Additional observations from a re-analysis of the deposited data

Results flagged for a closer look

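The following genes differed between siRNA.2 and siRNA.1 in the direct test of that difference (edgeR, adjusted over all genes tested). They were sought only among the genes of the main set and the list genes named for their calls with both siRNAs. They are not all that passed. Of the list genes 17 were called in this test (5 higher, 12 lower), among them A2ML1 (-1.23), EVPL (-0.39) and KLK6 (0.25), which were not sought here. Over all tested genes 12.2% were called. TGM1 differed by a log2 fold change of -1.16, higher than control with siRNA.1 and lower with siRNA.2, with no overlap among the 3 groups. CST6 (-0.83) and ABCA12 (-0.59) had the same order of group means and were likewise called in opposite directions against control. After siRNA.2 the FPKM range of ABCA12 overlapped that of control. Against control, the siRNA.1 calls of TGM1 and CST6 were lost in 3 and 2 alternatives, and the siRNA.2 call of ABCA12 in 4. SCEL (-1.25) and PPL (-0.91) fell with both siRNAs and further with siRNA.2, as did ELF3 (-0.31). PADI3 (0.48), KLK13 (0.71) and ZNF750 (0.72) fell with both and further with siRNA.1. PI3 (-1.05) rose with both and further with siRNA.1, but this difference lost its call in 9 of 18 alternatives, among them DESeq2 (adjusted p = 0.0973), the replicate block (0.103) and the fit without siRNA.1 library 3 (0.68), in a range of 0.0162 to 0.68. The difference of PADI3 lost its call in 3 alternatives and that of KLK13 in 1 (adjusted p up to 0.121 and 0.1). The causes of these differences were not tested.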

How the results depend on the processing

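For the 10 genes, 370 of 387 alternative values kept their direction and side of the threshold, as did 678 of 702 for the named list genes. The number of the 10 genes called was 3 to 4 after siRNA.1 and stayed at 4 after siRNA.2 and at 1 between the siRNAs when single libraries were left out, and was 3 with either siRNA when a log2 fold change of 1 or more in size was also asked for. Under that threshold the genes of the 5 lists called were 8 in place of 21 with siRNA.1, 9 in place of 26 with siRNA.2 and 3 in place of 17 between the siRNAs, by construction. Between the siRNAs limma called 11 list genes with either pseudocount, and over all genes 1437 (pseudocount 0.1) and 1414 (pseudocount 1) against 2604 in edgeR, and the cause was not tested. Leaving out single libraries gave 17 to 22, 21 to 26 and 13 to 17 list genes. SPRR1A went from -0.35 to 1.03 with siRNA.2 when its reads were summed with those of SPRR1B, which hold most of the sum. With a pseudocount of 1, low genes gave smaller folds: SPRR2D 0.84 and 0.81, PI3 1.7 and 0.98, SCEL -0.41 and -0.91 for siRNA.1 and siRNA.2. SPRR2D ranged from 1.23 to 2.23 and from 1.19 to 2.19 over libraries left out. No pairing of the libraries by replicate number was seen: correlations of deviations were -0.20 to 0.11 for same numbers and -0.08 to 0.19 for others, and 4 of 18 matched best to their own number. The deviations are from means of 3 libraries, so this check cannot exclude a pairing. With the replicate block 4, 4 and 1 of the 10 genes and 20, 25 and 16 list genes were called. Depth limits IVL, SPRR3 and RHCG, at most 5 counts per library, and SPRR1A, at most 6.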
